A study of Homo sapiens with 8 samples.

Results

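The genes described here encode nuclear subunits of respiratory complex III, complex IV and ATP synthase, together with the electron carrier cytochrome c. A list of 37 gene symbols was matched to the array annotation, and 35 of them had a transcript cluster, the array's probe set for a gene, assigned to that symbol alone, out of 18417 genes measured in this way. Where a gene had more than 1 such cluster, the one with the highest mean over all 8 arrays was used. The Rieske iron-sulfur protein gene UQCRFS1 had no listed cluster, and the ATP synthase epsilon subunit gene ATP5F1E was found only in a cluster shared with another symbol.

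The study asked how the tumour suppressor VHL and oxygen shape the metabolism of renal cell carcinoma. Its arrays compared the VHL-negative (VHL-) clear cell carcinoma line 786-O, left untransfected, with 786-O cells stably transfected with VHL (VHL+). Each was kept for 24 h under normoxia or under hypoxia, for which the methods give 1% O2. That makes 4 groups of 2 arrays, which the labels call biological replicates. All cells derive from 1 tumour line, the VHL+ cells are an overexpression transfectant studied as a bulk culture, and no array of 786-O cells with an empty vector was analysed here. Whether a difference between VHL- and VHL+ cells came from VHL or from the transfection and selection therefore cannot be told apart.

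Complex III takes electrons from ubiquinol and hands them to cytochrome c, complex IV (cytochrome c oxidase) passes them on to oxygen, and the proton gradient built on the way drives ATP synthase. Most subunits are encoded in the nucleus, and mitochondrial DNA supplies only the catalytic core of complex IV, cytochrome b and a pair of membrane subunits of ATP synthase. In the absence of VHL the HIF transcription factors escape degradation, and COX4I2, an alternative form of complex IV subunit 4, is known as a gene that responds to hypoxia. The nuclear factors NRF1 and GABP (also called NRF2) are known regulators of many subunit genes.

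To describe the sequence upstream of these genes, the 250 bases before each gene's start were read from RefSeq (GRCh38.p14). The set of promoters used here held 28 of the 37 symbols. The NRF1 motif (GCGCA, then any base, then GCGC) was present on either strand in 6 of the 28 (21.4%) against 5.53% of all 27305 promoters of this length. The GABP motif CCGGAAG was present in 9 of the 28 (32.1%) against 8.82%, and the core of the HIF motif, ACGTG, in 8 of the 28 (28.6%) against 18.7%. These matches are letters in a window and not measured binding sites. Of the 9 genes that passed the test for VHL below, 4 held the NRF1 motif, 2 the GABP motif and 3 the HIF core. UQCR10, COX7B, COX7C and ATP5MG held neither the NRF1 nor the GABP motif. The promoters of 4 of these genes are printed because they cover all 3 complexes and both directions of change. NRF1 and GABP matches are in capitals, and they did not overlap in these 4. COX5B (chr2:97645812-97646061, plus strand) held 1 GABP match, and UQCR11 (chr19:1605463-1605712, minus strand) held 2 matches of each motif. ATP5F1C (chr10:7787927-7788176, plus strand) and UQCRC1 (chr3:48609647-48609896, minus strand) held 1 NRF1 match each.
COX5B: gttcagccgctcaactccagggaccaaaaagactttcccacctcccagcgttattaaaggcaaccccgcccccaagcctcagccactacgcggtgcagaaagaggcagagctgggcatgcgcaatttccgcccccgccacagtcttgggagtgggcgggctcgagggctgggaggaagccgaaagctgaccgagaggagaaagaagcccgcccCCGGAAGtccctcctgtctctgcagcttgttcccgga
UQCR11: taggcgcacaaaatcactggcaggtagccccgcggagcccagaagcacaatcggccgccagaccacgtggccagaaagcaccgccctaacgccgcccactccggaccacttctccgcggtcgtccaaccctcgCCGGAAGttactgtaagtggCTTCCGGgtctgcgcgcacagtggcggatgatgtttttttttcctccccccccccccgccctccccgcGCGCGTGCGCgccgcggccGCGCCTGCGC
ATP5F1C: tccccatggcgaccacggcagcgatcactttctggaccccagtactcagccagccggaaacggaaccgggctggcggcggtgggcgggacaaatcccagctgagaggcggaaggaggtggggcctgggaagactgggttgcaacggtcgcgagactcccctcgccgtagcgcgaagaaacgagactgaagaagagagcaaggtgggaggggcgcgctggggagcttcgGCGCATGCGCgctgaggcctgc
UQCRC1: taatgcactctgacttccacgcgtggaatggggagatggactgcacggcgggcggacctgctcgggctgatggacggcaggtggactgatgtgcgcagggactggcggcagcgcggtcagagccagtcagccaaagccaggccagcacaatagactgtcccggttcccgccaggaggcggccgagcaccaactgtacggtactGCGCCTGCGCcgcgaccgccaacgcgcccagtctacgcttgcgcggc

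All values are log2 signals that the study describes as normalised by the robust multichip average (RMA), so a difference of 1 is a doubling. Despite that normalization the arrays were not level. The medians of the arrays ranged from 6.60 in VHL- cells under hypoxia (replicate 1) to 6.91 in VHL+ cells under hypoxia (replicate 1), and under hypoxia both VHL+ arrays (6.91 and 6.74) were brighter than both VHL- arrays (6.60 and 6.70). The part of this imbalance in the results was not tested. The comparisons are given also after quantile normalization, which makes the distributions of the arrays equal. The VHL transcript was 8.23 to 8.51 in the 4 VHL- arrays and 8.85 to 9.16 in the 4 VHL+ arrays. The hypoxia-induced gene NDRG1 rose with hypoxia in VHL+ cells by 2.28 and in VHL- cells by 1.07 (limma, adjusted p = 1.48e-07 and 0.00489). The glucose transporter gene SLC2A1 rose with hypoxia in VHL+ cells by 1.49 (limma adjusted p = 0.000351). All 6 measured markers of renal tubule epithelium and renal carcinoma lay above the median of every array, whereas the 3 measured markers of tubule differentiation (LRP2, CUBN and AQP1) lay below it. Of the markers of other cell types, 3 of 4 for leukocytes, 3 of 3 for endothelium and 2 of 3 for fibroblasts lay below the median of every array, and the exceptions were CD68 and COL1A1.

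Over all 8 arrays, with oxygen in the model, VHL+ cells had higher signals for 8 of the 35 genes and a lower signal for 1 (limma, Benjamini-Hochberg adjusted p under 0.05 over 33297 clusters). The genes that rose were UQCR10 and UQCR11 of complex III, COX5B, COX7B and COX7C of complex IV, and ATP5F1C, ATP5ME and ATP5MG of ATP synthase. The signal of UQCRC1, the gene of a core protein of complex III, fell. Of all clusters tested, 10.6% rose and 3.72% fell, against 22.9% and 2.86% of these genes. Among the clusters that remained when dim ones were left out, which kept 33 of the 35 genes, the background was 17.4% and 5.96%. The median change of the 35 genes was 0.14 against 0.06 over all clusters. After quantile normalization 6 genes rose and 3 fell, against 8.4% and 7.6% of all clusters, and the median of the 35 was 0.01. Without replicate 1 of VHL+ cells under hypoxia, the brightest array, 3 genes rose and 1 fell, and the shares over all clusters also dropped, to 4.54% and 2.73%. In RNA from a whole culture, less RNA per cell and fewer cells that express a gene cannot be told apart.

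**Figure D1:**
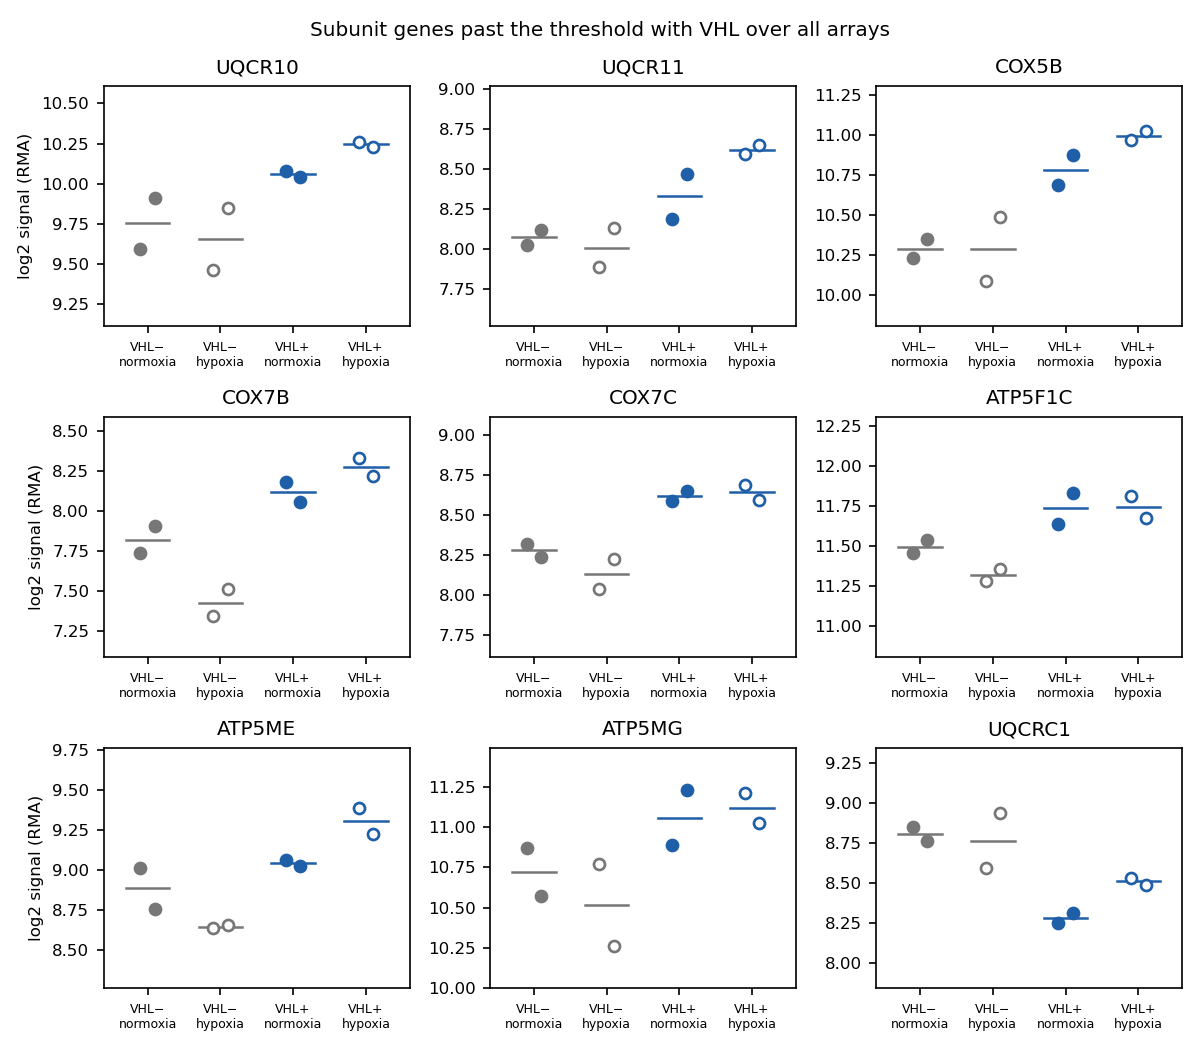
RMA log2 signal (vertical axis, a span of 1.5 in every panel) of the 9 genes past the threshold for VHL over all arrays, by group. Points are single arrays, lines are means of 2 arrays, grey is VHL-, blue is VHL+, filled is normoxia and open is hypoxia. In the 8 genes that rose every VHL+ array lies above every VHL- array, and in UQCRC1 every VHL+ array lies below.

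Complex IV held the largest increases. COX5B, a subunit on the matrix side of the complex, gave 10.23 and 10.35 in VHL- cells under normoxia, 10.09 and 10.48 under hypoxia, and in VHL+ cells 10.69 and 10.87 under normoxia and 10.97 and 11.02 under hypoxia. All 4 VHL+ arrays lay above all 4 VHL- arrays, with a change of 0.60 (SE 0.11, limma adjusted p = 0.000319), a 1.52-fold difference. COX7B, a small membrane subunit, gave 7.74 and 7.91 in VHL- cells under normoxia, 7.34 and 7.51 under hypoxia, and in VHL+ cells 8.18 and 8.05 under normoxia and 8.33 and 8.22 under hypoxia. Again the groups did not overlap, and the lowest pair was VHL- cells under hypoxia. The change with VHL was 0.57 (SE 0.12, limma adjusted p = 0.000901). COX7C, another small membrane subunit, gave 8.32 and 8.24 in VHL- cells under normoxia, 8.04 and 8.23 under hypoxia, and in VHL+ cells 8.59 and 8.65 under normoxia and 8.69 and 8.60 under hypoxia. The VHL+ arrays stood together above the VHL- arrays, with a change of 0.42 (SE 0.10, limma adjusted p = 0.00469). These 3 genes passed the threshold after quantile normalization (adjusted p = 0.00173, 0.0113 and 0.00936) and with each array left out in turn. The other 9 of the 12 complex IV genes did not pass, with changes from 0.02 (COX7A1) to 0.22 (COX4I1), and the median of all 12 was 0.13 as deposited and 0.00 after quantile normalization.

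In complex III the RNA signals of 2 small subunit genes rose and that of 1 core protein gene, UQCRC1, fell. The paper's protein gels gave the opposite direction for UQCRC1, higher in VHL+ than in VHL- cells under normoxia. Those gels measured protein, after a longer incubation than that of the arrays. UQCR10, a small accessory subunit, gave 9.59 and 9.91 in VHL- cells under normoxia, 9.46 and 9.85 under hypoxia, and in VHL+ cells 10.08 and 10.04 under normoxia and 10.26 and 10.23 under hypoxia. The 2 VHL- groups were widely spread between their replicates, but none of their arrays reached the VHL+ range, and the change was 0.45 (SE 0.11, limma adjusted p = 0.00659). UQCR11, a further accessory subunit, gave 8.03 and 8.12 in VHL- cells under normoxia, 7.88 and 8.13 under hypoxia, and in VHL+ cells 8.19 and 8.47 under normoxia and 8.59 and 8.65 under hypoxia. Its groups were separate by a narrow margin, with a change of 0.43 (SE 0.11, limma adjusted p = 0.00741). Both genes passed after quantile normalization, and both lost the call without replicate 1 of VHL+ cells under hypoxia (adjusted p = 0.0950 for UQCR10 and 0.0822 for UQCR11). UQCRC1, a core protein on the matrix side, ran the other way, with 8.85 and 8.76 in VHL- cells under normoxia, 8.59 and 8.93 under hypoxia, and in VHL+ cells 8.25 and 8.31 under normoxia and 8.53 and 8.49 under hypoxia. Every VHL+ array was below every VHL- array, and the signal fell by 0.39 (SE 0.11, limma adjusted p = 0.0136; 0.000930 after quantile normalization). The call was lost without replicate 1 of VHL- cells under normoxia (adjusted p = 0.0561), replicate 2 of VHL- cells under hypoxia (0.0832) or replicate 2 of VHL+ cells under normoxia (0.0606).

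UQCRC2, the gene of the partner core protein, had a change of 0.24 that did not pass (adjusted p = 0.147). The pair of core protein genes thus had opposite signs. CYC1, the cytochrome c1 that carries the haem of complex III, gave 10.67 and 10.67 in VHL- cells under normoxia, 10.48 and 10.61 under hypoxia, and in VHL+ cells 10.70 and 10.82 under normoxia and 10.81 and 10.87 under hypoxia. Its groups did not overlap, yet the change of 0.19 did not pass (SE 0.10, limma adjusted p = 0.286). UQCRH, the hinge protein at the site where cytochrome c docks, had a change of 0.24 (adjusted p = 0.127) in its own cluster and of 0.47 (adjusted p = 0.00195) in a cluster annotated also with UQCRHL and GNA13, which cannot be assigned to 1 gene. CYCS, cytochrome c itself, gave 8.70 and 8.85 in VHL- cells under normoxia, 8.62 and 8.64 under hypoxia, and in VHL+ cells 8.54 and 9.07 under normoxia and 8.97 and 8.85 under hypoxia. The normoxic VHL+ replicates of CYCS spanned all other arrays, and the change of 0.15 (95% confidence interval -0.09 to 0.39) did not pass.

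Within ATP synthase, 1 of 2 measured central stalk genes and 2 of 3 small membrane subunit genes rose. ATP5F1D of the central stalk had a change of 0.27 (limma adjusted p = 0.0816) and did not pass. The remaining small membrane subunit gene, ATP5MF, had -0.04 (-0.19 after quantile normalization). ATP5F1C, the gamma subunit that turns inside the catalytic head, gave 11.45 and 11.54 in VHL- cells under normoxia, 11.28 and 11.35 under hypoxia, and in VHL+ cells 11.64 and 11.83 under normoxia and 11.81 and 11.67 under hypoxia. The groups were separate, and the change was 0.33 (SE 0.10, limma adjusted p = 0.0299; 0.00899 after quantile normalization). The call for ATP5F1C was close to the threshold and was lost in 6 of the 8 fits with 1 array left out, that is, all but those without replicate 2 of VHL- cells or replicate 1 of VHL+ cells under normoxia (adjusted p up to 0.161). ATP5ME, subunit e, which helps join ATP synthases into dimers, gave 9.01 and 8.76 in VHL- cells under normoxia, 8.63 and 8.66 under hypoxia, and in VHL+ cells 9.06 and 9.03 under normoxia and 9.39 and 9.22 under hypoxia. ATP5MG, subunit g, its partner in the dimer interface, gave 10.87 and 10.57 in VHL- cells under normoxia, 10.77 and 10.26 under hypoxia, and in VHL+ cells 10.89 and 11.23 under normoxia and 11.21 and 11.03 under hypoxia. For both, the highest VHL- array lay just under the lowest VHL+ array, and the largest distance was between the hypoxic groups. The changes were 0.41 for ATP5ME (SE 0.11, limma adjusted p = 0.0142) and 0.47 for ATP5MG (SE 0.12, adjusted p = 0.00868). Neither passed after quantile normalization (adjusted p = 0.132 and 0.154). Without replicate 1 of VHL+ cells under hypoxia their adjusted p-values were 0.129 and 0.166, and without replicate 2 of VHL- cells under hypoxia 0.0657 and 0.0888.

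The catalytic head and the peripheral stalk of ATP synthase held no increase that passed. ATP5F1A, the alpha subunit, had a change of -0.24 (adjusted p = 0.159), and ATP5PF, a peripheral stalk subunit, had -0.23 (adjusted p = 0.230). After quantile normalization both fell, by 0.38 (adjusted p = 0.0394) and 0.35 (adjusted p = 0.00409). The beta subunit gene ATP5F1B had 0.14, and the 3 genes that all encode the same c-ring protein, ATP5MC1, ATP5MC2 and ATP5MC3, had -0.08, -0.02 and 0.19. The median of the 14 ATP synthase genes was 0.08 as deposited and -0.04 after quantile normalization. Counted without a test, every VHL+ array lay above every VHL- array for 12 of the 35 genes and below for 1, where 10.1% and 3.34% of all clusters did so. After quantile normalization the counts were 8 above and 2 below, where 10.0% and 9.12% of all clusters did so. The arrays of UQCRC2, CYC1, ATP5ME and ATP5MG, separate as deposited, then overlapped. Neither count was repeated without the dim clusters.

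**Figure D2:**
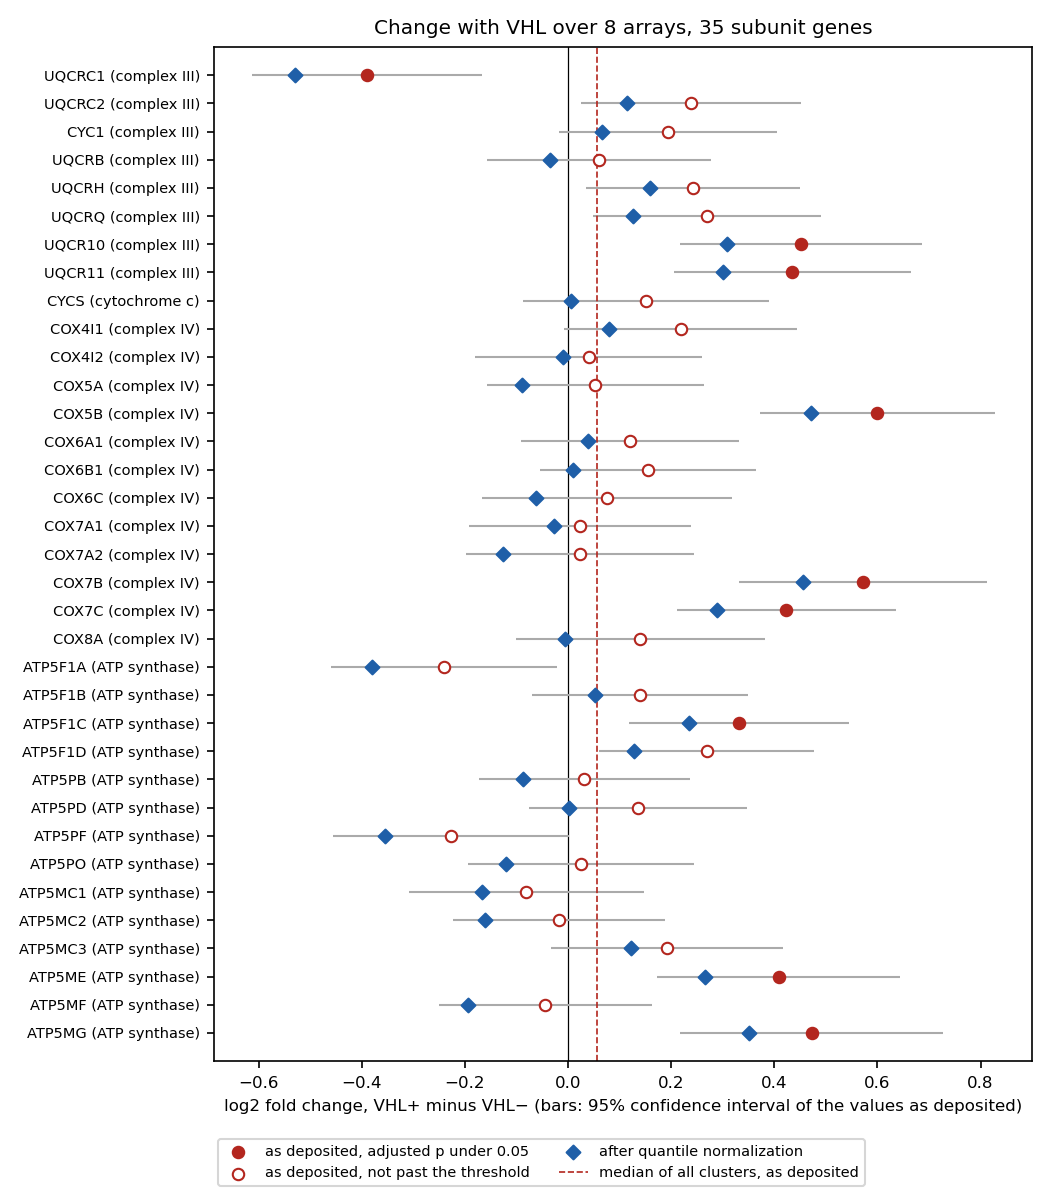
Change with VHL (horizontal axis, log2 signal of VHL+ minus VHL- cells over 8 arrays) of the 35 genes, in the order complex III, cytochrome c, complex IV and ATP synthase. Circles are values as deposited with 95% confidence intervals (filled where adjusted p was under 0.05), diamonds are values after quantile normalization, and the dashed line is the median of all clusters, 0.06. COX5B and COX7B stand farthest to the right and UQCRC1 to the left, and the diamonds of most genes lie to the left of their circles.

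Splitting by oxygen gave fewer calls under normoxia. Between VHL+ and VHL- cells under normoxia, 0 of the 35 genes rose and 1, UQCRC1, fell by 0.53 (SE 0.14, limma adjusted p = 0.0391), where 2.07% of all clusters rose and 2.69% fell. The call was lost without 6 of the 8 arrays in turn, with adjusted p up to 0.285, and kept without either replicate of VHL- cells under hypoxia. In either direction 6 of the 35 genes had an unadjusted p under 0.05, against 13.6% of all clusters. COX5B had the largest positive change, 0.49 (adjusted p = 0.0742), followed by ATP5MG with 0.34 (adjusted p = 0.443), while ATP5PF had -0.38 (adjusted p = 0.185). After quantile normalization COX5B (0.48, adjusted p = 0.0322) and UQCRH (0.27, adjusted p = 0.0473) rose and UQCRC1 fell, against 2.7% and 2.72% of all clusters. The median of the 35 genes was 0.05 and that of all clusters -0.04.

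Under hypoxia 8 of the 35 genes were higher in VHL+ cells and 0 lower, where 10.3% of all clusters rose and 1.31% fell. With dim clusters left out, 6 of 33 genes (18.2%) rose and 0 fell, against 15.2% and 1.89% of the clusters kept. COX7B had the largest change, 0.85 (SE 0.14, limma adjusted p = 0.000613), a 1.80-fold difference. It was followed by COX5B with 0.71 (adjusted p = 0.00480), ATP5ME with 0.66 (0.00464), UQCR11 and ATP5MG with 0.61 each (0.00970 and 0.0304), UQCR10 with 0.59 (0.0170) and COX7C with 0.51 (0.0191). UQCRQ, a small subunit of complex III, was near the threshold with 0.43 (adjusted p = 0.0491). Its signals were 9.10 and 8.85 in VHL- cells under normoxia, 8.89 and 8.81 under hypoxia, and in VHL+ cells 9.11 and 9.04 under normoxia and 9.32 and 9.25 under hypoxia. Only the hypoxic pairs of UQCRQ were clearly separate. The lowest values in this contrast were those of UQCRC1 (-0.25, adjusted p = 0.300) and ATP5F1A (-0.16, adjusted p = 0.520). In this contrast the whole array moved: the median of all clusters was 0.16 and 86.4% of them were positive, against a median of 0.25 and 32 of 35 for these genes. After quantile normalization 3 genes rose (COX7B, COX5B and UQCR11) and UQCRC1 fell by 0.53 (adjusted p = 0.0227), where 2.76% and 2.74% of all clusters did, and the median of the 35 was 0.00. No gene passed without replicate 1 of VHL+ cells under hypoxia, 1 without replicate 2 of that group and 3 without replicate 1 of VHL- cells under hypoxia. The share of all clusters that rose in these fits was 0.526%, 1.55% and 5.35%.

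Hypoxia itself moved none of the 35 genes past the threshold. In VHL- cells 0 rose and 0 fell by limma, where 0.021% of all clusters rose and 0.045% fell. In these cells 1 gene had an unadjusted p under 0.05, as did 5.30% of all clusters. The changes ran from -0.40 for COX7B (unadjusted p = 0.0104, adjusted p = 0.659) and -0.24 for ATP5ME (adjusted p = 0.806) to 0.04 for COX5A and 0.14 for ATP5PO. The median was -0.09, close to that of all clusters, -0.12, and relative to the latter COX7B had -0.28. In VHL+ cells 0 rose and 0 fell, where 0.15% and 0.003% of all clusters did. An unadjusted p under 0.05 was found for 0 genes in VHL+ cells, against 6.16% of all clusters. There UQCR11 had 0.29 (unadjusted p = 0.0593, adjusted p = 0.831) and ATP5ME 0.26 (adjusted p = 0.863), at the other end lay COX6C with -0.06 and ATP5F1A with -0.05, and the median was 0.11 against 0.09 over all clusters. After quantile normalization the medians of the 35 genes were 0.00 in VHL- cells and -0.03 in VHL+ cells.

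**Figure D3:**
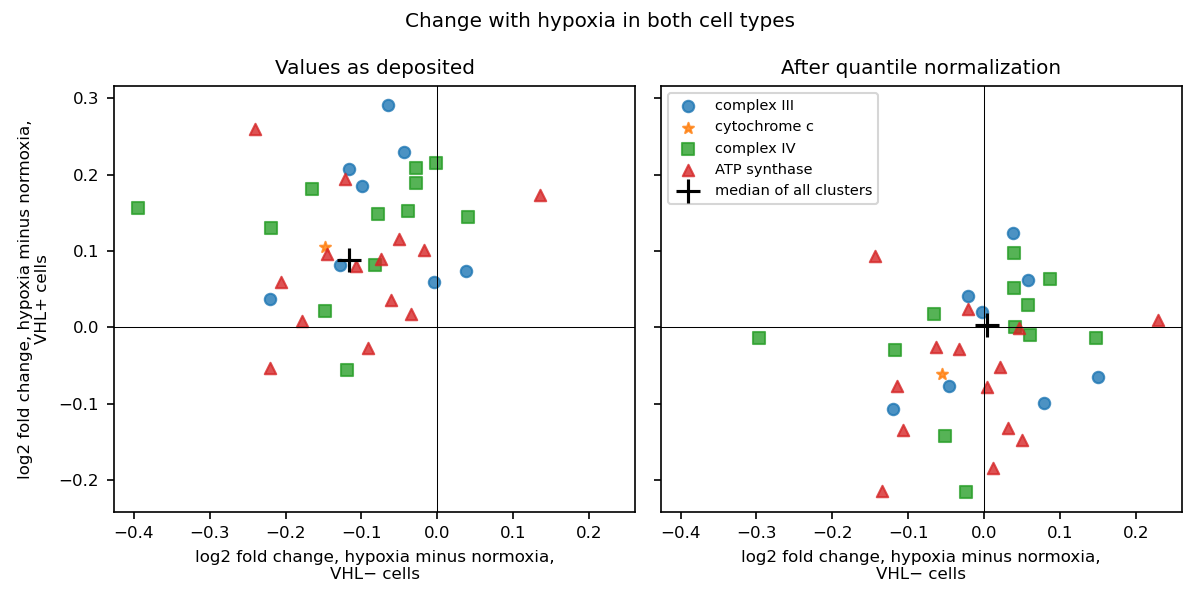
Change with hypoxia in VHL- cells (horizontal axis) against that in VHL+ cells (vertical axis), both as log2 signal under hypoxia minus normoxia, for the 35 genes by complex, with the median of all clusters as a cross. As deposited 32 genes are below 0 in VHL- cells and 32 above 0 in VHL+ cells, around the cross at -0.12 and 0.09, and after quantile normalization the points scatter about 0 on both axes.

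The difference between the hypoxia responses of VHL+ and VHL- cells was tested as an interaction. As deposited all 35 genes had a positive interaction, from 0.04 (UQCRH and ATP5PO) to 0.50 (ATP5ME) and 0.55 (COX7B), but 94.0% of all clusters were positive too, with the same median of 0.21. No gene passed by limma (smallest adjusted p = 0.651), where 0.00601% of all clusters rose and 0% fell. An unadjusted p under 0.05 was found for 2 of the 35 genes and for 5.61% of all clusters. After quantile normalization 15 of the 35 were positive, and the median was -0.03. COX7B kept a positive value of 0.28 and ATP5ME of 0.24, neither of which passed. Over all arrays, with VHL in the model, the change with hypoxia ran from -0.14 (ATP5F1A) and -0.12 (COX7B) to 0.11 (UQCR11) and 0.15 (ATP5PO). ATP5PO, a peripheral stalk subunit and the one with the smallest p, gave 9.67 and 9.55 in VHL- cells under normoxia, 9.62 and 9.87 under hypoxia, and in VHL+ cells 9.51 and 9.73 under normoxia and 9.89 and 9.69 under hypoxia. ATP5F1A, the next, gave 10.32 and 10.08 in VHL- cells under normoxia, 10.06 and 9.89 under hypoxia, and in VHL+ cells 9.85 and 9.90 under normoxia and 9.92 and 9.72 under hypoxia. The hypoxic and normoxic arrays overlapped for both. In that fit 0 genes rose and 0 fell by limma, where 0.111% and 0.0601% of all clusters did. In it 0 genes had an unadjusted p under 0.05, against 4.95% of all clusters.

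The pair COX4I1 and COX4I2 was read for unequal change of the isoform RNAs, which cannot show which isoform complex IV held. COX4I2 gave 6.59 and 6.56 in VHL- cells under normoxia, 6.46 and 6.53 under hypoxia, and in VHL+ cells 6.49 and 6.51 under normoxia and 6.82 and 6.48 under hypoxia. It lay below the median of every array, and 1 hypoxic VHL+ replicate, the brightest array, stood above the rest while its partner did not. Its change with hypoxia over all arrays was 0.03 (95% confidence interval -0.19 to 0.26), with -0.08 in VHL- cells (-0.38 to 0.22) and 0.15 in VHL+ cells (-0.15 to 0.45). Its change with VHL was 0.04, which became -0.01 after quantile normalization. COX4I1, the common form, gave 8.39 and 8.53 in VHL- cells under normoxia, 8.21 and 8.38 under hypoxia, and in VHL+ cells 8.38 and 8.63 under normoxia and 8.64 and 8.73 under hypoxia. Its groups overlapped. The change of COX4I1 with hypoxia was 0.01 (95% confidence interval -0.22 to 0.23; -0.02 after quantile normalization), and with VHL it was 0.22 (adjusted p = 0.245). The difference COX4I2 minus COX4I1 within an array, used only for its change between groups, moved by 0.03 with hypoxia (two-sided exact permutation p = 0.829) and by -0.18 with VHL (exact permutation p = 0.171, adjusted over both p = 0.343), where 4 arrays against 4 cannot give a p below 0.0286. The change of this difference with VHL was -0.09 after quantile normalization and -0.10 without replicate 2 of VHL+ cells under hypoxia.

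COX7A1, the isoform of subunit 7a typical of heart and muscle, gave 6.41 and 6.43 in VHL- cells under normoxia, 6.29 and 6.38 under hypoxia, and in VHL+ cells 6.41 and 6.31 under normoxia and 6.57 and 6.31 under hypoxia. It too lay below the median of every array. COX7A2, the isoform of other tissues, gave 9.23 and 9.38 in VHL- cells under normoxia, 9.00 and 9.18 under hypoxia, and in VHL+ cells 9.14 and 9.17 under normoxia and 9.24 and 9.33 under hypoxia. The groups overlapped for both genes. Both had a change with VHL of 0.02, which became -0.03 for COX7A1 and -0.13 for COX7A2 after quantile normalization, and neither value passed the test. Their difference within an array moved by 0.04 with hypoxia (exact permutation p = 0.629).

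**Figure D4:**
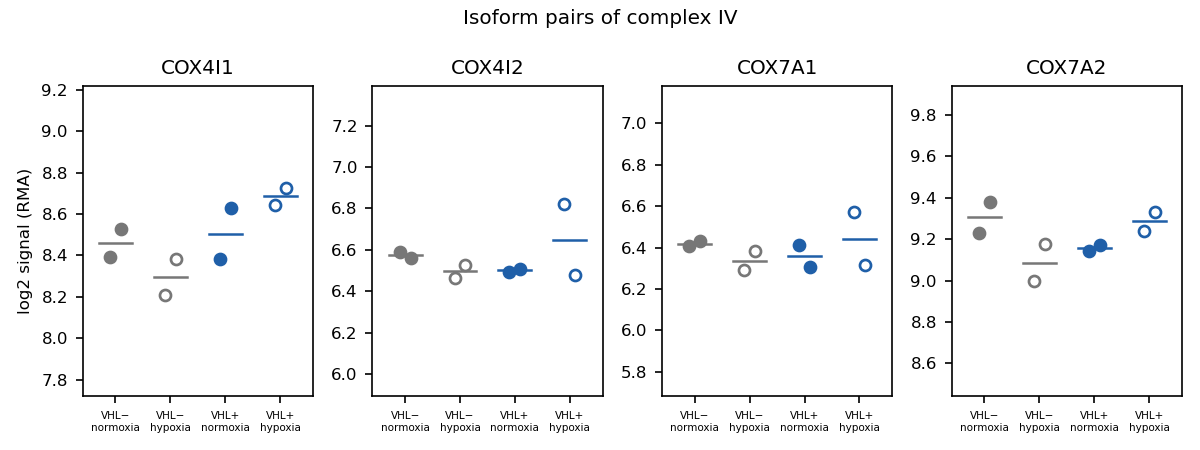
RMA log2 signal (vertical axis, a span of 1.5 in every panel) of the isoform pairs COX4I1 and COX4I2, and COX7A1 and COX7A2, by group. Points are single arrays, lines are means of 2 arrays, grey is VHL-, blue is VHL+, filled is normoxia and open is hypoxia. For COX4I2 and COX7A1 7 of 8 arrays lie in a narrow band and replicate 1 of VHL+ cells under hypoxia lies above it, at 6.82 and 6.57.

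Genes that build or regulate these complexes were read from lists of assembly factors and regulators. With VHL over all arrays, 6 of 21 measured complex IV assembly genes rose and 1 fell, where 10.6% of all clusters rose and 3.72% fell. With dim clusters left out, those shares were 17.4% and 5.96%. HIGD2A, a factor for complex IV and supercomplex assembly, gave 10.14 and 10.08 in VHL- cells under normoxia, 9.96 and 10.00 under hypoxia, and in VHL+ cells 10.87 and 10.71 under normoxia and 10.98 and 10.85 under hypoxia. Its change of 0.81 (SE 0.10, limma adjusted p = 2.90e-06) was larger than that of any of the 35 subunit genes and passed with each array left out. COA7, a complex IV assembly factor of the intermembrane space, rose by 0.60 with VHL (adjusted p = 0.000370), SCO1, a copper chaperone, by 0.49 and COX14 by 0.39, while COA3, which stabilises the newly made core subunit, fell by 0.37 (adjusted p = 0.0281) and is named as the 1 that fell, after its values were seen. Of the 7 complex III assembly genes 3 rose, led by UQCC1, a factor for cytochrome b, with 0.59 (adjusted p = 0.000222), TTC19 with 0.53 and BCS1L, which inserts the Rieske protein, with 0.40. The VHL+ and VHL- arrays overlapped for COA7, SCO1, COA3 and BCS1L, and were separate for HIGD2A, COX14, UQCC1 and TTC19. Of 4 ATP synthase assembly genes 0 rose and 0 fell by limma (smallest adjusted p = 0.474). The medians were 0.15 over the 21 complex IV and 0.23 over the 7 complex III assembly genes, against 0.06 over all clusters. After quantile normalization the calls were 6 higher and 4 lower for the complex IV list and 2 higher and 1 lower for the complex III list, where 8.4% of all clusters rose and 7.6% fell.

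COA7 was the 1 gene of these lists that also moved with hypoxia. It gave 7.55 and 7.75 in VHL- cells under normoxia, 6.81 and 7.07 under hypoxia, and in VHL+ cells 7.96 and 8.32 under normoxia and 7.71 and 7.60 under hypoxia. Within each cell type both hypoxic arrays lay below both normoxic arrays, and COA7 fell by 0.60 with hypoxia over all arrays (limma adjusted p = 0.0190). After quantile normalization the change was -0.62 with an adjusted p of 0.0611, and without replicate 1 of VHL+ cells under hypoxia the adjusted p was 0.633.

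Among 17 regulators of these genes 3 rose with VHL and 1 fell, where 10.6% and 3.72% of all clusters did. With dim clusters left out, those shares were 17.4% and 5.96%. After quantile normalization 1 regulator rose and 1 fell, where 8.4% and 7.6% of all clusters did. PPARGC1A, the coactivator that drives mitochondrial biogenesis, gave 6.21 and 6.46 in VHL- cells under normoxia, 6.19 and 6.45 under hypoxia, and in VHL+ cells 6.98 and 7.28 under normoxia and 6.64 and 7.02 under hypoxia. The groups were separate, with a change of 0.65 (SE 0.12, limma adjusted p = 0.000269; 0.0360 after quantile normalization), in a cluster that lay below the array median on 5 of the 8 arrays. CXXC5, a factor that acts at the COX4I2 promoter, rose by 0.50 (adjusted p = 0.00133; 0.0550 after quantile normalization) and GABPA, the DNA-binding subunit of GABP, by 0.40 (adjusted p = 0.0250; 0.111 after quantile normalization). TFB1M, which methylates the ribosomal RNA of mitochondria, fell by 0.41 (adjusted p = 0.00580). PPARGC1A, CXXC5 and TFB1M passed with each array left out, whereas GABPA did not pass without replicate 1 of VHL- or of VHL+ cells under hypoxia or without replicate 2 of VHL+ cells under normoxia (adjusted p up to 0.215). The median of the 17 regulators was 0.12 against 0.06 over all clusters.

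Neighbouring subunits gave calls with VHL near the share over all clusters, of which 10.6% rose. SDHD, the membrane anchor of complex II, rose by 0.44 (limma adjusted p = 0.0151), the 1 call among 6 measured complex II genes. ATP5MK, a further small subunit of ATP synthase, rose by 0.33 (adjusted p = 0.0388), the 1 call among 9 other subunit genes and isoforms. Neither passed after quantile normalization (adjusted p = 0.238 and 0.123) or without replicate 1 of VHL+ cells under hypoxia. SDHD also lost the call without replicate 2 of VHL- cells under hypoxia, and ATP5MK without 4 other arrays. With hypoxia over all arrays 0 genes of the lists passed by limma except COA7.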

How the data were processed

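Total RNA of the 8 cultures was hybridised by the authors to Affymetrix Human Gene arrays (version 1). The deposited values are described as log2 signals normalised with RMA in Partek. No genome build is given in the sources used here. The table held 33297 transcript clusters: 19460 with 1 symbol, 1754 with several and 12083 with none, named through GEO's platform annotation. Groups were fitted with limma 3.58.1 (R 4.3.3), as 4 groups for contrasts within VHL status or oxygen and as both factors for changes over all arrays, with Benjamini-Hochberg adjustment over all clusters and a threshold of 0.05. With 2 arrays a group, precision is limited by their number, and p-values measure the spread between these arrays, which the labels call biological but tie to no culture or day. The alternatives were quantile normalization, median centring, leaving out the 15015 dim clusters, each array left out, a replicate block, and the methods' test (p under 0.005). That test was run here as a one-way ANOVA on only the 2 sets of arrays compared, also with adjustment. Unadjusted, 88 clusters rose and 200 fell with VHL under normoxia, fewer than the paper lists. Counts from it are therefore not the paper's own. Exact permutation tests (scipy 1.17.1) served the isoform differences. The genes, lists and tests were chosen with earlier results of these data known. Named genes were the isoform pairs, CYCS, CYC1, genes past the threshold (or the smallest p where none passed), the 2 largest changes each way, and up to 4 called genes of each other list. The promoters and gene names are from RefSeq.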

Additional observations from a re-analysis of the deposited data

How the results depend on the processing

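With 8 arrays, changes near 0.3 on the log2 scale lay at the edge of what passed, and the dim clusters of COX4I2 and COX7A1 limit what their values can show. For VHL over all arrays the genes called higher numbered 3 to 8 and lower 0 to 1 with 1 array left out, fewest higher without replicate 1 of VHL+ cells under hypoxia. The shares of all clusters in those fits ran from 4.54% to 15.3% higher and from 2.73% to 4.65% lower. Median centring and quantile normalization each gave 3 lower (5.63% and 7.6% of all clusters), and the median was 0.0106 after quantile normalization. The methods' test gave 2 higher after adjustment (2.12% of all clusters), 5 unadjusted (4.29%), and 0 lower in both (0.808% and 1.52%).

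For VHL under normoxia, quantile normalization gave 2 higher (2.7% of all clusters) and median centring 1 (2.07%). The 1 call lower (UQCRC1) became 0 without dim clusters, with a trended robust fit, in a fit of the 2 groups alone and by the methods' test, adjusted or not. Leaving out arrays gave medians from -0.00347 to 0.117. For VHL under hypoxia, quantile normalization and median centring each gave 3 higher (2.76% and 2.55% of all clusters). Quantile normalization gave 1 lower (2.74%), and the methods' test 0 higher, adjusted or not (0.003% and 1.11% of all clusters). The median there was 0.00286 after quantile normalization, 0.0744 after median centring and 0.184 to 0.285 with arrays left out. The median change with hypoxia in VHL+ cells was -0.0255 after quantile normalization, and that of the interaction -0.0276 and, after median centring, -0.0169. With arrays left out, medians ran from -0.153 to -0.0363 for hypoxia in VHL- cells, 0.0632 to 0.156 in VHL+ cells, 0.136 to 0.263 for the interaction, 0.104 to 0.182 for VHL over all arrays and -0.0240 to 0.0630 for hypoxia over all arrays. The cause of these shifts was not tested.

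Signs of small changes turned, none of them past the threshold. With VHL, COX4I2 was -0.0104 after quantile normalization and -0.0211 after median centring, COX7A1 -0.0275 and -0.0386, and COX7A2 -0.125 and -0.0382. With hypoxia, COX4I1 was -0.0238 after quantile normalization. COX7A1 minus COX7A2 changed with VHL by 0.0976 after quantile normalization. With arrays left out, the change with VHL ran from -0.0504 to 0.0860 for COX4I2, -0.0444 to 0.0605 for COX7A1, -0.0470 to 0.0884 for COX7A2 and -0.0507 to 0.0658 for COX7A1 minus COX7A2. The change with hypoxia ran from -0.0752 to 0.0773 for COX4I1, -0.0560 to 0.0803 for COX4I2, -0.0675 to 0.0349 for COX7A1, -0.0987 to 0.0255 for COX7A2, -0.0670 to 0.0238 for CYC1, -0.152 to 0.0585 for CYCS and -0.0315 to 0.137 for COX4I2 minus COX4I1.

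Replicate numbers were shared by the groups, and the deviations of same-numbered arrays correlated positively over clusters, from 0.0503 to 0.605. The largest value joined the normoxic and hypoxic arrays of VHL- cells. Whether same-numbered arrays share a culture or day is not stated, and the main fits did not use the number. With a replicate block, VHL over all arrays gave 8 higher and 1 lower, where 11.7% and 4.23% of all clusters did. VHL under hypoxia gave 9 higher, where 13.1% of all clusters rose, against 10.3% without the block. VHL under normoxia gave 1 higher and 1 lower, where 3.51% and 4.05% of all clusters did.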
